A study of Mus musculus with 6 samples.

Results

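The genes described here encode what the growing oocyte puts outside itself: the zona pellucida glycoproteins ZP1, ZP2 and ZP3, the growth factors GDF9, BMP15 and FGF8, and oocyte secreted protein 1 (Oosp1). They were taken by gene symbol, and all 7 were found once each among the 47205 genes of the expression table. Whole ovaries of mice at 9 days post partum (dpp) had been profiled by RNA sequencing in 6 libraries, 3 of genotype WT and 3 of genotype SRSF1 cKO, in which the splicing factor gene Srsf1 was deleted in ovarian granulosa cells. The sources used here give neither the Cre driver nor the strain, and say neither whether WT mice carried a floxed allele nor whether animals were pooled; they name no treatment. Values are FPKM (fragments per unit of gene length, set by the authors to a common library size). Levels can thus be set side by side between genes and between libraries, within the limit of the length patterns described below.

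The zona pellucida is the extracellular coat that an oocyte lays down once its follicle begins to grow, and all of its proteins are secreted by the oocyte itself. GDF9 and BMP15 are ligands of the TGF-beta superfamily that signal from the oocyte to the granulosa cells around it, GDF9 through BMPR2 with TGFBR1 and SMAD2 or SMAD3, and BMP15 through BMPR2 with BMPR1B and SMAD1 or SMAD5. FGF8 acts on FGF receptors of the same granulosa cells. The members are therefore made by a cell other than the cell in which Srsf1 was deleted, and the comparison is of their transcripts in whole ovaries with and without the deletion.

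Transcription of the zona genes depends on FIGLA, a basic helix-loop-helix factor that binds E-boxes (CANNTG), and that of Gdf9 and other oocyte genes on the homeobox factor NOBOX, which binds TAATTG and TAATTA. RefSeq promoter windows (GRCm38.p6, 250 bases before to 50 after the start site) were matched for 3 of the 7 genes, Zp3, Oosp1 and Bmp15. All 3 are shown, and no window was matched for Zp1, Zp2, Gdf9 or Fgf8. Capitals mark each CANNTG. The windows lie at chr5:135979855-135980154 (plus strand, Zp3), chr19:11691002-11691301 (minus strand, Oosp1) and chrX:6320675-6320974 (minus strand, Bmp15).
Zp3: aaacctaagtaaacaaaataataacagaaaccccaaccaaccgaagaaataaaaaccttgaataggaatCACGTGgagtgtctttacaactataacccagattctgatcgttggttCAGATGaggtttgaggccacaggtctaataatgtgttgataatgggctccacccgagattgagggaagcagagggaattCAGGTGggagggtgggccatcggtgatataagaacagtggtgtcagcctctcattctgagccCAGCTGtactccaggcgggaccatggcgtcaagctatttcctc
Oosp1: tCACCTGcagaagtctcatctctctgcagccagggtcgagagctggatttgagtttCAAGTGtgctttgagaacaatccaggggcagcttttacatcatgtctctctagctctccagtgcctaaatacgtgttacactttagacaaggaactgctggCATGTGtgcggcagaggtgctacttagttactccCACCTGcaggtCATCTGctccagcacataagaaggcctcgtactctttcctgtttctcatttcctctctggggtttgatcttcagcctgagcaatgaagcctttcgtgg
Bmp15: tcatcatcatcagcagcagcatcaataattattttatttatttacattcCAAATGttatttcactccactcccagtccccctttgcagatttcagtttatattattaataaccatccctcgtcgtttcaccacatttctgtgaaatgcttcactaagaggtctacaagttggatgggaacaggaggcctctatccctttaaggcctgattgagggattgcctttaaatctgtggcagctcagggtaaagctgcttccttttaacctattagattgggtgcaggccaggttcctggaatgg

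The Zp3 window held 4 CANNTG matches, of which the one starting 181 bases upstream of the start site read CACGTG. Matches to TATAA, searched on both strands, began 160 and 29 bases upstream of the Zp3 start and 154 bases upstream of the Bmp15 start, and 24.9% of all windows hold this motif. The Oosp1 window held 5 CANNTG matches and the Bmp15 window 1. Each of the 3 windows thus has the motif, as do 72.3% of all 32851 RefSeq promoter windows of this length, so its presence does not set these genes apart. CACGTG, which is a special case of CANNTG, is in 7.15% of all windows. TAATTA, its own reverse complement, was found in the Bmp15 window, 225 bases upstream, and is in 5.29% of all windows. TAATTG, searched on both strands, was in none of the 3 windows and is in 8.0% of all.

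The libraries were of similar depth, with 16.8 to 18.7 M whole reads recovered from the FPKM steps, and mitochondrially encoded genes took 1.67% to 2.32% of them. Srsf1 itself was lower in each cKO library than in any WT library, with 45.3 ± 4.96 against 22.9 ± 3.52 FPKM for cKO (mean ± SD, n = 3 per genotype; limma log2 fold change -0.96 with SE 0.134, adjusted p = 0.32). All 15 oocyte reference genes in the table, among them Ddx4 and Dazl of germ cells at any stage and Padi6, Nlrp5 and Zar1 of growing oocytes, had at least 9.42 FPKM in each of the 6 libraries. Whether the replicates came from separate animals is unstated, so p-values measure only the spread between these samples, which may be technical.

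Zp3, Zp2 and Zp1 transcripts did not differ detectably between WT and cKO ovaries, and the same held for Gdf9, Bmp15, Fgf8 and Oosp1. Of the 7 genes, 0 were past the threshold of an adjusted p of 0.05 (limma), where 0.0204% of the 14714 genes tested were. At an unadjusted limma p under 0.05 there were again 0 of 7, against 6.34% of genes tested, and limma-voom on the recovered reads gave 0 of 7 both with adjustment (0% of genes tested) and without (6.16%). The WT and cKO libraries overlapped for each of the 7 genes, and they did not overlap for 12.3% of genes tested. With only 7 genes, counts of 0 cannot be told apart from these shares. The median log2 fold change (cKO minus WT, on the log2(FPKM + 1) scale) of the 7 genes was -0.057, with 1 higher and 6 lower in cKO, and that of all genes tested was -0.00014. These figures cover whole ovaries, in which fewer oocytes and less RNA per oocyte cannot be told apart.

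**Figure D1:**
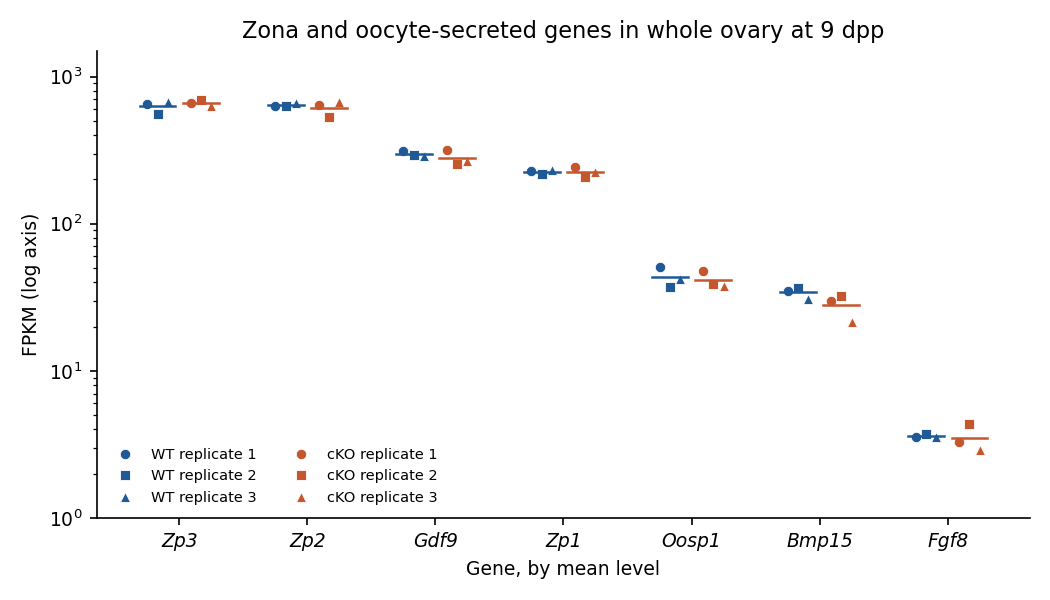
FPKM (log axis) of each gene in the 3 WT (blue) and 3 cKO (orange) libraries, with the replicate number as the marker shape and the group mean as a line. The WT and cKO points overlap for each gene, from Zp3 at 561 to 697 FPKM down to Fgf8 at 2.89 to 4.32 FPKM.

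The zona genes were among the most abundant messages of the ovary. Zp3, which encodes a structural subunit of the zona filament (chromosome 5, 136008959 to 136017478, plus strand, GRCm39), stood at 650, 561 and 678 FPKM in WT replicates 1, 2 and 3 and at 660, 697 and 634 FPKM in cKO. The highest value was that of cKO replicate 2 and the lowest that of WT replicate 2, with the other libraries between. Its log2 fold change was 0.080 (95% interval -0.22 to 0.38, limma adjusted p = 0.908), which corresponds to a cKO level of 0.861 to 1.30 times WT.

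Zp2 (chromosome 7, 119725985 to 119744514, minus strand) encodes the subunit that sperm bind and that is cleaved after fertilization. It stood at 628, 631 and 664 FPKM in WT and at 637, 533 and 675 FPKM in cKO. Both the lowest value, in cKO replicate 2, and the highest, in cKO replicate 3, belonged to cKO, with the 3 WT libraries inside that range. The log2 fold change was -0.067 (95% interval -0.38 to 0.24, limma adjusted p = 0.926), or 0.77 to 1.18 times WT.

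Zp1 (chromosome 19, 10891660 to 10897965, minus strand), whose product crosslinks filaments of ZP2 and ZP3, was the least variable of the 7 genes. Its values were 229.6, 216 and 233 FPKM in WT and 244, 209 and 225 FPKM in cKO, a coefficient of variation over all 6 libraries of 5.57%. The cKO values again enclosed the WT values. The log2 fold change was -0.0043 (95% interval -0.24 to 0.24, limma adjusted p = 0.995), or 0.845 to 1.18 times WT.

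Among zona transcripts the proportions were similar in both groups. Zp1 made up 14.5% to 15.8% of the summed zona FPKM over the 6 libraries, Zp2 37.0% to 44.8% and Zp3 39.8% to 48.5%. The ratio of Zp3 to Zp2 was 1.04, 0.889 and 1.02 in WT and 1.04, 1.31 and 0.94 in cKO, so that cKO replicate 2 stood highest and WT replicate 2 lowest. The difference of this ratio between the groups was 0.15 on the log2 scale (exact two-sided permutation p = 0.4, adjusted p = 0.6 over 5 ratios compared, where 0.1 is the smallest raw p that 3 against 3 libraries can give). Without cKO replicate 2 the difference was 0.012. The ratio of Zp1 to Zp2 ran from 0.343 to 0.366 in WT and from 0.333 to 0.392 in cKO (exact permutation p = 0.5, adjusted p = 0.6).

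Gdf9, which encodes the oocyte growth factor that granulosa cells need to develop beyond the primary follicle (chromosome 11, 53321773 to 53328731, plus strand), stood at 312, 292 and 287 FPKM in WT. In cKO it stood at 319, 256 and 265 FPKM, with replicate 1 the highest of all 6 libraries and replicates 2 and 3 the lowest. The log2 fold change was -0.091 (95% interval -0.37 to 0.19, limma adjusted p = 0.894), or 0.773 to 1.14 times WT. Gdf9 lies 114 bases from Uqcrq, a gene of the opposite strand that encodes a subunit of respiratory complex III, and whether the libraries kept strand is unstated. Uqcrq was far lower, with 23.4 ± 4.18 FPKM for WT against 28.0 ± 3.70 FPKM for cKO (SD, n = 3). No other member had a gene of the table within 2 kb, and 0 of 7 were overlapped by another gene.

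Bmp15 (chromosome X, 6226108 to 6232778, minus strand), the relative and dimerization partner of GDF9, had the largest log2 fold change of the 7 genes. It stood at 34.9, 36.7 and 30.9 FPKM in WT and at 29.7, 32.3 and 21.5 FPKM in cKO. The lowest value, in cKO replicate 3, stood apart from the other 5 libraries, while cKO replicate 2 lay above WT replicate 3. The log2 fold change was -0.30 (95% interval -0.68 to 0.071, limma p = 0.0969 and adjusted p = 0.798; exact two-sided permutation p = 0.2), or 0.625 to 1.05 times WT. Without cKO replicate 3 it was -0.13 (limma adjusted p = 0.732). The interval thus holds both no change and a level well below WT.

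The ratio of Gdf9 to Bmp15 was 8.94, 7.96 and 9.28 in WT and 10.7, 7.93 and 12.3 in cKO. The groups overlapped through cKO replicate 2, the lowest of all, and the difference was 0.22 on the log2 scale (exact permutation p = 0.4, adjusted p = 0.6 over 5 ratios). It was 0.083 without cKO replicate 3 and 0.40 without cKO replicate 2.

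Fgf8 (chromosome 19, 45724930 to 45731506, minus strand), which with BMP15 promotes glycolysis in the cumulus cells around the oocyte, was the least abundant of the 7 genes. It stood at 3.56, 3.71 and 3.56 FPKM in WT and at 3.27, 4.32 and 2.89 FPKM in cKO, on 96 to 150 recovered reads per library. The WT libraries were nearly equal and lay within the cKO range, whose ends were cKO replicates 2 and 3. The log2 fold change was -0.049 (95% interval -0.38 to 0.28, limma adjusted p = 0.954). Counting alone gives an error of 8.16% to 10.2% at this depth, beside a coefficient of variation of 13.3% over the 6 libraries. Counting error covers neither library preparation nor duplicate reads.

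Oosp1 (chromosome 19, 11644824 to 11668415, minus strand) encodes a small secreted protein of the oocyte. It stood at 50.7, 37.1 and 42.2 FPKM in WT and at 47.8, 38.7 and 38.0 FPKM in cKO. Replicate 1 was the highest library of each group, and the groups overlapped over nearly their whole range. The log2 fold change was -0.057 (95% interval -0.40 to 0.28, limma adjusted p = 0.945), or 0.759 to 1.22 times WT.

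**Figure D2:**
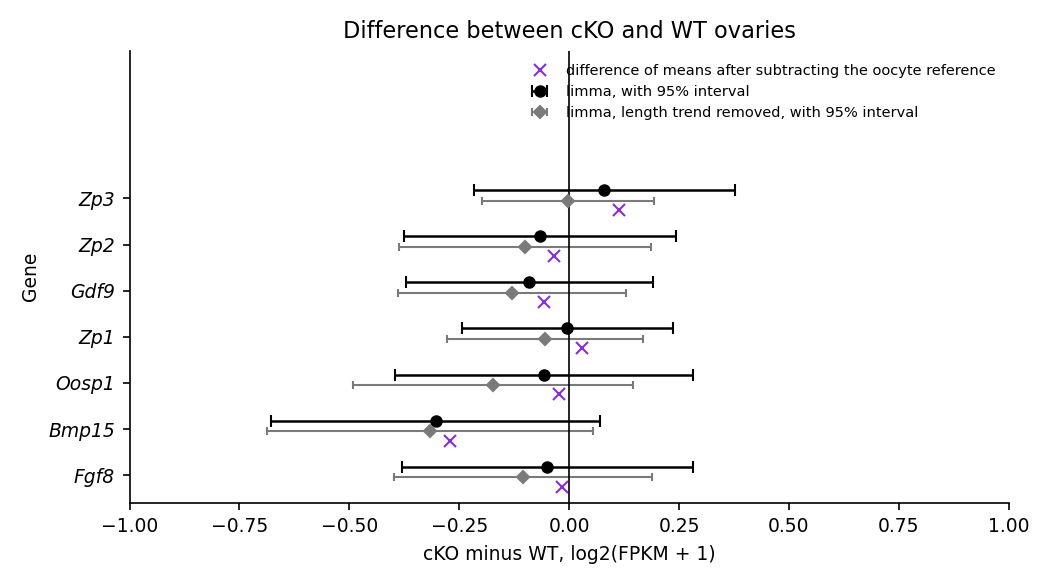
Difference between cKO and WT on the log2(FPKM + 1) scale for each gene. Black circles are the limma estimates with 95% intervals, grey diamonds the same after removal of each library's length trend, and crosses the difference of group means after subtraction of the oocyte reference. Each interval spans 0, and Bmp15 lies furthest from it at -0.30.

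The order of the levels was Zp3, Zp2, Gdf9, Zp1, Oosp1, Bmp15 and Fgf8, from a mean over all 6 libraries of 647 ± 47.4 FPKM to 3.55 ± 0.473 FPKM (SD, n = 6). Zp3 ranked 36 among all genes of the table by mean FPKM, Zp2 39, Gdf9 114 and Zp1 150, whereas Fgf8 ranked 10925. The 7 genes together made up 0.513% to 0.594% of the summed FPKM of a library. Zp3 and Zp2 did not differ beyond their spread, with Zp3 higher in 4 of 6 libraries (exact two-sided sign-flip permutation p = 0.719). In the other 5 neighbouring pairs the gene of higher mean was higher in 6 of 6 libraries, each with an exact permutation p of 0.0313, the smallest that 6 libraries can give, and an adjusted p of 0.0375 over 6 pairs. The pairs were set from the same 6 libraries, so these p-values describe how steady the order was among them. Gdf9 and Zp1 lay close, the level of Gdf9 being 1.18 to 1.36 times that of Zp1 in single libraries. Oosp1 and Bmp15 came close in WT replicate 2, with a ratio of 1.01 there, and lay furthest apart in cKO replicate 3, at 1.77. The length patterns described below were not removed from these ratios.

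Whole ovaries may hold different amounts of oocyte RNA, so each gene was also set against the mean log2(FPKM + 1) of the 15 oocyte reference genes of the same library. That reference was 6.67 ± 0.0548 in WT and 6.64 ± 0.101 in cKO (SD, n = 3 each; exact permutation p = 0.6). Relative to it, the cKO minus WT difference was 0.11 for Zp3, -0.034 for Zp2, 0.029 for Zp1, -0.058 for Gdf9, -0.27 for Bmp15, -0.016 for Fgf8 and -0.024 for Oosp1. None of the 7 passed (exact two-sided permutation, adjusted p = 0.7 to 1), in a design whose smallest raw p of 0.1 cannot reach the threshold. Bmp15 relative to the reference stood at -1.54 ± 0.144 in WT and -1.81 ± 0.269 in cKO (SD, n = 3), and the groups overlapped.

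The libraries differed in how values depended on gene length, and this pattern, which was chosen after the values were seen, ran through oocyte genes too, with a Spearman's rho between length and deviation over 22 of them of 0.68 in WT replicate 2 and -0.53 in cKO replicate 2 (a description across genes, which are not independent replicates). Over 12729 protein-coding genes, the deviation of WT replicate 2 from the mean of the other 5 libraries was -0.35 at the median for genes under 1 kb and 0.089 for genes over 4 kb. In cKO replicate 2 it was 0.29 and -0.11. The medians of the other 4 libraries lay between -0.038 and 0.060 in all 4 length classes. Zp3, with a gene length of 1.317 kb in the table, was lowest in WT replicate 2 and highest in cKO replicate 2. Zp2, of 2.489 kb, was lowest in cKO replicate 2. Its deviation there was -0.28 and that of Gdf9, of 2.261 kb, was -0.20, where the 2 to 4 kb median was 0.033. Zp1, of 1.925 kb, stood at -0.14 against 0.17 for the 1 to 2 kb class. Oosp1, the shortest at 0.873 kb, stood at -0.14 against 0.29 for genes under 1 kb. These genes thus lay on the other side of 0 from their length class. Bmp15, the longest at 3.116 kb, stood at 0.090 and Fgf8, of 1.809 kb, at 0.28, on the same side as theirs.

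With each library's length trend removed, the log2 fold change of Zp3 was -0.0028 and that of Bmp15 -0.32 (95% interval -0.69 to 0.053, limma adjusted p = 0.788). Those of the other 5 genes ran from -0.056 for Zp1 to -0.17 for Oosp1, and again 0 of 7 were past the threshold. The ratio of Zp3 to Zp2 in cKO replicate 2 was then 1.23, against 0.949 to 1.03 in the WT libraries.

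**Figure D3:**
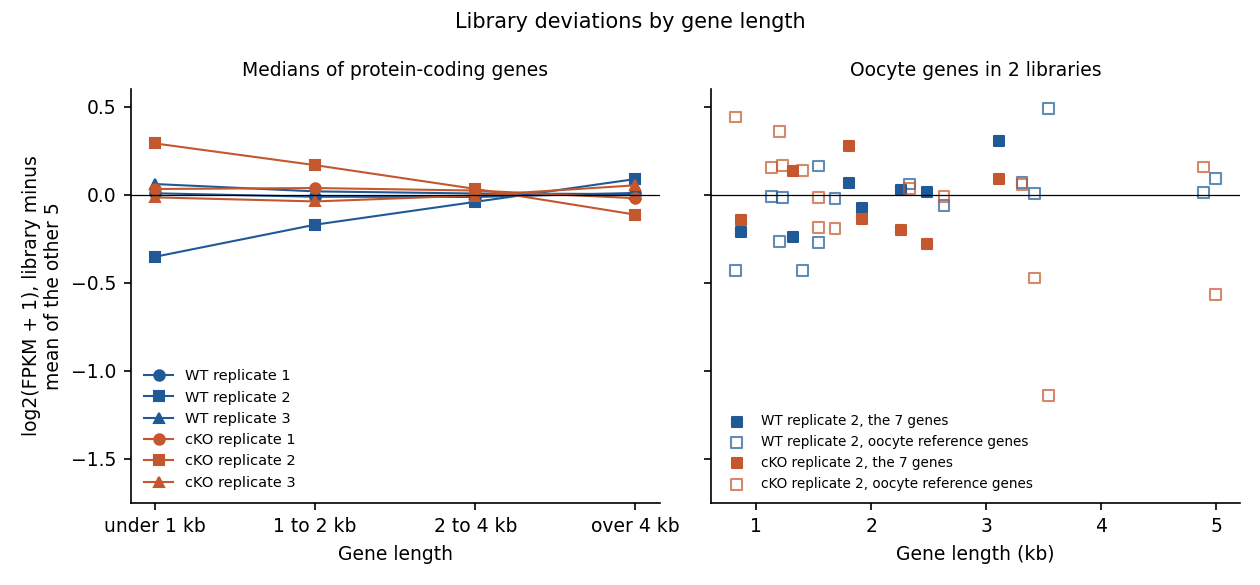
Left, the median deviation of each library from the mean of the other 5, in log2(FPKM + 1), over protein-coding genes in 4 classes of gene length. Right, the same deviation for the 7 genes (filled) and the 15 oocyte reference genes (open) in WT replicate 2 and cKO replicate 2, by gene length. At the left, WT replicate 2 runs from -0.35 to 0.089 and cKO replicate 2 from 0.29 to -0.11, in opposite directions.

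The members did not vary as a single block across libraries. The mean profile, each gene's log2(FPKM + 1) less its own mean, read 0.088, -0.014 and 0.031 for WT replicates 1, 2 and 3, then 0.054, -0.031 and -0.13 for those of cKO. Pearson's r over the 6 libraries, which share depth and preparation between genes, was positive for 12 and negative for 9 of the 21 pairs. It ran from -0.86 for Zp2 with Fgf8 to 0.79 for Gdf9 with Oosp1. Zp1 went with Gdf9 (0.76) and Zp3 went against Zp2 (-0.36).

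Of 9106 protein-coding genes of at least 5 FPKM, those most like the mean profile were Rnaseh2a (r = 0.98), Elobl (0.97), Mesp2 (0.97), Thoc6 (0.96), Hdac10 (0.96) and Hgh1 (0.95). Nearest to Gdf9 alone were Slc39a3, Eif4e1b and Trim75 (r = 0.98 to 0.99), and nearest to Zp3 alone Use1, Unc50 and Rgs19 (r = 0.99 each). Eif4e1b, an oocyte form of a cap-binding translation factor, stood at 84.0, 73.3 and 68.0 FPKM in WT and at 82.6, 57.7 and 58.6 FPKM in cKO, with replicate 1 highest and cKO replicates 2 and 3 lowest among the libraries, as for Gdf9. With 6 libraries and so many genes searched, these values of r describe likeness here and no more.

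Other secreted products of the oocyte gave 0 of 6 past the threshold (limma), with 2 higher and 4 lower and a median log2 fold change of -0.17. Rspo2, which encodes a Wnt agonist of the R-spondin family, was lower in each cKO library than in any WT library, with 8.37 ± 0.269 FPKM for WT against 6.28 ± 1.81 FPKM for cKO (SD, n = 3; limma adjusted p = 0.781). Oosp3, of the same family as Oosp1, likewise did not overlap, at 9.25 ± 1.90 and 7.48 ± 0.533 FPKM (limma adjusted p = 0.801). The groups thus did not overlap for 2 of the 6 genes, and for 12.3% of all genes tested. Bmp6 stood at 16.8 ± 0.968 and 18.2 ± 1.58 FPKM.

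The oocyte transcription factors upstream of the zona and growth factor genes gave 0 of 7 past the threshold (limma). All 7 were higher in cKO, with log2 fold changes from 0.019 to 0.32 (median 0.056). Figla had 18.5 ± 2.93 FPKM for WT against 22.4 ± 0.636 FPKM for cKO (SD, n = 3; limma adjusted p = 0.773), and WT replicate 1 lay within the cKO range. Sohlh1, a helix-loop-helix factor of early oocytes, stood at 31.8 ± 8.52 and 39.1 ± 1.46 FPKM, and the LIM homeobox gene Lhx8 at 21.6 ± 1.38 and 23.1 ± 2.47 FPKM. Among reference genes of growing oocytes 0 of 12 passed, with 3 higher and 9 lower in cKO (median log2 fold change -0.051). Dppa3, a maternal factor that guards DNA methylation, had the smallest p and was 1 of the 3 higher, at 193 ± 23.7 and 237 ± 33.4 FPKM (limma adjusted p = 0.791).

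Receptors and SMADs of the GDF9 and BMP15 pathways are expressed in granulosa cells and in other ovarian cells. The list includes the inhibitory Smad6 (log2 fold change 0.18) and Smad7 (-0.22), which do not transmit the signals. Of 12 listed genes 11 were tested, 0 were past the threshold and 9 were lower (median log2 fold change -0.11). Bmpr1b, the BMP15 receptor subunit, did not overlap between groups, with 6.81 ± 1.23 FPKM for WT against 4.67 ± 0.487 FPKM for cKO (limma adjusted p = 0.743). Smad3, which carries GDF9 signals, stood at 79.1 ± 1.76 and 66.9 ± 4.19 FPKM, again without overlap (limma adjusted p = 0.768). Bmpr2, shared by both ligands, stood at 29.0 ± 3.67 and 24.5 ± 7.64 FPKM. In all, 2 of the 11 did not overlap, beside 12.3% of all genes tested. Among proprotein convertases, the proteases that release mature ligands from their precursors, 0 of 4 passed. The groups did not overlap for Pcsk7 alone, 1 of the 4, beside 12.3% of all genes tested. Pcsk6 stood at 191 ± 18.5 and 164 ± 15.3 FPKM, and Furin at 29.1 ± 2.07 and 29.3 ± 2.35 FPKM.

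FGF receptors and the feedback genes that FGF signals induce gave 0 of 11 tested past the threshold, 8 higher and 3 lower (median log2 fold change 0.11). The groups did not overlap for 3 of the 11, Spry2, Fgfr4 and Fgfr3, where they did not for 12.3% of all genes tested. Spry2, an inhibitor of receptor tyrosine kinase signals, was higher in cKO, with 3.85 ± 0.664 FPKM for WT against 5.46 ± 1.16 FPKM for cKO (limma adjusted p = 0.773). The receptor gene Fgfr4 was lower in cKO, at 4.15 ± 1.05 and 2.89 ± 0.376 FPKM (limma adjusted p = 0.773), and the phosphatase gene Dusp6 at 9.75 ± 2.36 and 12.2 ± 0.377 FPKM.

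Genes that oocyte signals are known to raise in cumulus cells, including cholesterol synthesis genes, gave 0 of 12 tested past the threshold, 9 lower and 3 higher (median log2 fold change -0.076). Fdps, an enzyme of isoprenoid synthesis, stood at 26.2 ± 0.477 and 23.5 ± 1.10 FPKM, and Ebp, a sterol isomerase, at 5.88 ± 0.777 and 7.28 ± 0.803 FPKM. Has2, Ptgs2 and Ptx3, which serve cumulus expansion in the ovulatory follicle, are the 3 listed genes that lay below the filter of 1 FPKM. Of 3 genes that oocyte factors are known to lower, 2 were tested and 0 passed, with 1 higher and 1 lower. Cd34 stood at 48.0 ± 3.89 and 49.8 ± 7.66 FPKM, with overlap. Kitl, whose product signals back to the oocyte, is also among the 10 granulosa markers, whose median log2 fold change was -0.46. Kitl stood at 70.1 ± 4.02 and 50.6 ± 8.56 FPKM (limma adjusted p = 0.74). Its groups did not overlap, as for 12.3% of all genes tested.

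**Figure D4:**
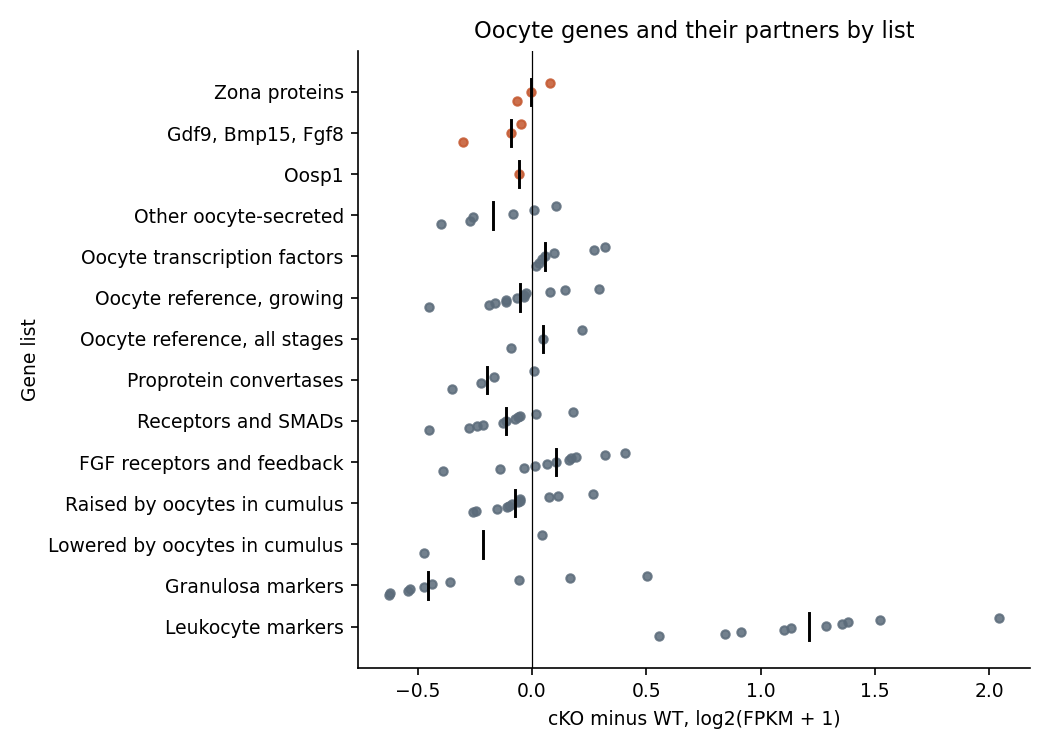
Log2 fold changes (cKO minus WT, log2(FPKM + 1)) of the tested genes of each list, with the list's median as a bar. The 7 genes described here (orange) lie between -0.30 and 0.08, the granulosa markers have a median of -0.46 and the leukocyte markers of 1.21.

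Of the markers of other cells, 0 genes were past the threshold (limma) in any of 6 lists. All 10 leukocyte markers were higher in cKO (smallest adjusted p = 0.613), and their summed level ran from 36.4 to 56.6 FPKM in WT and from 80.9 to 233 FPKM in cKO. All 12 interferon response genes were higher too (smallest adjusted p = 0.736), with summed levels of 96.7 to 127 FPKM in WT and 134 to 718 FPKM in cKO. The summed levels did not overlap for either list. Singly, 8 of the 10 leukocyte and 7 of the 12 interferon genes did not overlap, beside 12.3% of all genes tested. The interferon sums weigh Bst2 most in WT, where it stood at 77.0 to 106 FPKM. In cKO it stood at 94.9 to 310 FPKM, with overlap. All 8 surface epithelium markers were higher (smallest adjusted p = 0.32), with sums of 166 to 205 FPKM in WT and 235 to 332 FPKM in cKO. All 7 endothelial markers were higher by less (median log2 fold change 0.13), with sums of 140 to 145 FPKM in WT and 157 to 162 FPKM in cKO. The sums of these 2 lists did not overlap either. Singly, 6 of the 8 surface epithelium and 2 of the 7 endothelial markers did not overlap. Of 10 granulosa markers 8 were lower and 2 higher, and their sums overlapped, at 772 to 902 FPKM in WT and 660 to 778 FPKM in cKO, whereas their mean log2 scores did not, at -0.12 to 0.062 in WT and -0.43 to -0.16 in cKO. Of 6 stroma markers 5 were higher and 1 lower, and both their sums and their scores overlapped. None of these markers was at 0 throughout, and their part in the values of the oocyte genes was not tested. The mean leukocyte and interferon scores were highest in cKO replicate 1, where Zp3, Zp1, Gdf9 and Oosp1 stood above their WT mean and Zp2, Bmp15 and Fgf8 below it.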

How the data were processed

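Whole-ovary RNA was sequenced in 6 libraries, grouped by the genotype and replicate number of their titles. The authors deposited 1 table of FPKM values per gene and library. The submitters' processing notes name HISAT2 2.0.5, mm10 and GRCm39, with no role for either build; the table's chromosome accessions are those of GRCm39. Counter, annotation release and strandedness: not given in the sources used here. FPKM multiplied by gene length came in whole multiples of 1 step per library (100% within 0.01), which gave back read numbers and showed that the authors had already applied size factors, so no further scaling was made.

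log2(FPKM + 1), a scale that understates changes of low genes, was fitted with limma 3.58.1 (R 4.3.3; trended prior) over 14714 genes of mean at least 1 FPKM, with Benjamini-Hochberg adjustment and a threshold of 0.05. The fit was tested on simulated data. Single values and ratios were compared by exact permutation over libraries. Genes named from a list are among the 4 of smallest p there, and genes alike in pattern were ranked by Pearson's r. Marker names without values, Ptgs2, Ptx3, Has2, Fgfr3 and Uqcrq fall outside that rule, having been picked with their values in view. Of 134 listed genes 133 were in the table; Gcna was not matched. The members and lists were chosen with earlier results of these data known. Alternatives were other pseudocounts, filters, scalings, priors and weights, a replicate block, limma-voom on the recovered reads, other references and libraries left out.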

Additional observations from a re-analysis of the deposited data

How the results depend on the processing

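The number of members past the threshold was 0 in each of the 19 alternatives, those with a library left out included, and the smallest adjusted p of any member was 0.498 (limma, Bmp15 with library weights). Bmp15 kept its direction in all of them, from -0.42 to -0.13. Fgf8 could not be tested with a filter at 5 FPKM, since its mean is lower. Removal of the length trend, and the repeats of level order and ratios with a library left out, were chosen after seeing the data. The planned count models other than limma-voom were not run.

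Directions of members near 0 reversed, and the cause was not tested: Zp3 to -0.057 with quantile normalization and to -0.0028 with the length trend removed, and, with library weights, Zp1 to 0.069, Gdf9 to 0.020 and Oosp1 to 0.050. With a single library left out, Zp3 ran from -0.00092 to 0.14, Zp2 from -0.14 to 0.033, Zp1 from -0.062 to 0.051, Fgf8 from -0.18 to 0.048 and Oosp1 from -0.16 to 0.059. The median of the 7 genes was -0.12 after rescaling to a common total, which moved the median of all genes to -0.056. It was -0.11 with quantile normalization, 0.020 with library weights, -0.11 with the length trend removed, and -0.096 to -0.0017 with a library left out. Relative to the 15 oocyte reference genes the members' median difference was -0.024, and with a library left out it ran from -0.050 to -0.00080. With only the 3 germ cell genes of all stages as reference it was -0.12.

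Over all genes, 1 was called higher and 2 lower in cKO. None was called higher (0) with a pseudocount of 0.1 or 0.5, a stricter filter at 5 FPKM, without any filter, after quantile normalization, by limma-voom or once length trends were removed, while library weights gave 3. Lower calls were 0 when unfiltered or by limma-voom, and 1 once length trends were removed. Leaving out a library gave 0 to 1 higher and 0 to 1 lower. With 5 libraries the smallest sign-flip p is above the threshold, so that 0 neighbouring pairs in the order of levels passed, by construction. The deviations of libraries that share a replicate number correlated at 0.18, -0.08 and -0.06, and those of unlike number at -0.23 to 0.23. Whether the numbers stand for a pairing is unstated, and so few correlations cannot settle it. With the replicate block 0 genes were higher and 0 lower. Depth limits Fgf8 most, at 96 to 150 reads per library.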
